A study of Mus musculus with 30 samples.

Results

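Loss of a single CTCF binding site, CBS1, at the mouse Hoxd cluster was followed in the peaks of CTCF and of RAD21. All 13 libraries with the genotype label Del(CBS1) or WT were used, of 30 in the series, and each antibody was compared separately. CTCF was profiled in 3 Del(CBS1) and 3 WT libraries, and RAD21 in 3 Del(CBS1) and 4 WT libraries. Both groups were B6CBAF1 mouse embryos at E10.5, of which the trunk behind the occipital region was taken. The Del(CBS1) embryos were homozygous for an allele that lacks CBS1 in every cell, and the WT embryos were their control littermates. Parents were trans-heterozygous, and 1 embryo at a time was dissociated. Libraries were treated as separate embryos, which was not tested. ChIPmentation, chromatin immunoprecipitation with adapters inserted by Tn5 transposase on the beads, was run on fixed and sonicated chromatin. A trunk mixes many cell types, so fewer bound cells and less binding per cell cannot be told apart. Peak lists hold no expression values, and the tissue label was not checked against marker genes.

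CTCF is a zinc-finger protein that binds DNA at oriented motifs. RAD21 is a subunit of cohesin, the ring complex that extrudes chromatin loops and is halted by bound CTCF. The Hoxd genes run from Hoxd13, on the centromeric side, to Hoxd1, on the telomeric side, and are turned on in sequence from Hoxd1 towards Hoxd13 as the trunk extends. Regulatory landscapes flank the cluster on both sides, and CTCF sites within it are known for partitioning contacts with them.

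Stretches of DNA that carry the results are shown first. Positions are on chromosome 2 of mm10 (GRCm38), counted from 1, and the sequences are RefSeq promoter stretches of the 250 bases before a gene start (GRCm38.p6). The Hoxd3os1 stretch (chr2:74716131-74716380, minus strand) lies beside CBS1 and under a CTCF peak called in the Del(CBS1) libraries. Capitals mark its match to the CTCF core motif, searched on both strands as CC, 3 free bases, AG, 2 free bases and GGC. The Hoxd10 stretch (chr2:74691641-74691890, plus strand) holds the CTCF summit of CBS4, an intact site at which the RAD21 percentiles of the groups did not overlap. It holds no match in these letters.
Hoxd3os1: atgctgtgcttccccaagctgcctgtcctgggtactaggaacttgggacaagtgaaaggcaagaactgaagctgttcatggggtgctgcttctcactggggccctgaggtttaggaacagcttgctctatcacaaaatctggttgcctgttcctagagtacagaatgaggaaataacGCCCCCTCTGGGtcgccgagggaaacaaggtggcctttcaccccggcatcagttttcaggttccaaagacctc
Hoxd10: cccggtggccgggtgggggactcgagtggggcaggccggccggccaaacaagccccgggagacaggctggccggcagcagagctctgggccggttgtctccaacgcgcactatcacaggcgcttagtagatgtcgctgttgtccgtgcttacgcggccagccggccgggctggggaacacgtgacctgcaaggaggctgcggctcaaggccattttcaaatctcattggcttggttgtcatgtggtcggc
The match beside Hoxd3os1, read on the plus strand as CCCAGAGGGGGC, covers 74716192 to 74716203, 259 to 270 bp telomeric of the CBS1 summit. The same letters occur in 2828 of 32851 promoters of 300 bp (8.61%) and in 3 of 15 at HoxD, those of Hoxd11, Hoxd3 and Hoxd3os1. The bases under the CBS1 summit itself were not used here.

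The peak lists differed in length in ways that bear on every count of sites. The CTCF lists held 55049, 40574 and 44464 peaks on autosomes and X in Del(CBS1) libraries 1 to 3, against 52866, 57189 and 74915 in WT libraries 1 to 3. The RAD21 lists held 17995, 38395 and 33162 peaks in Del(CBS1), against 22405, 39736, 32433 and 34164 in WT libraries 1 to 4. Replicate 1 of each group had the shortest RAD21 list, and these 2 libraries had the lowest correlations with the other RAD21 libraries. Read depth was unknown, so the absence of a peak means only that none was called.

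The libraries also differed at X-linked and Y-linked positions. Firre, the gene of an X-linked long noncoding RNA with repeated CTCF sites that is known for CTCF binding on the inactive X chromosome, spans positions 50563120 to 50635321 of X. Its span held 1, 1 and 1 CTCF peak entries in Del(CBS1), against 20, 23 and 24 in WT. For RAD21 it held 0, 0 and 0 entries in Del(CBS1), against 5, 24, 20 and 20 in WT, so the groups did not overlap for either antibody. The first 3.5 Mb of chromosome Y held 3, 2 and 2 CTCF entries in Del(CBS1), against 2, 0 and 0 in WT, and 1, 1 and 3 RAD21 entries in Del(CBS1), against 1, 0, 0 and 0 in WT. Both WT replicate 1 libraries had entries at Firre and on Y. The labels give no sex of the embryos and do not say whether embryos were pooled for a library. The part of either in the results was not tested.

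**Figure D1:**
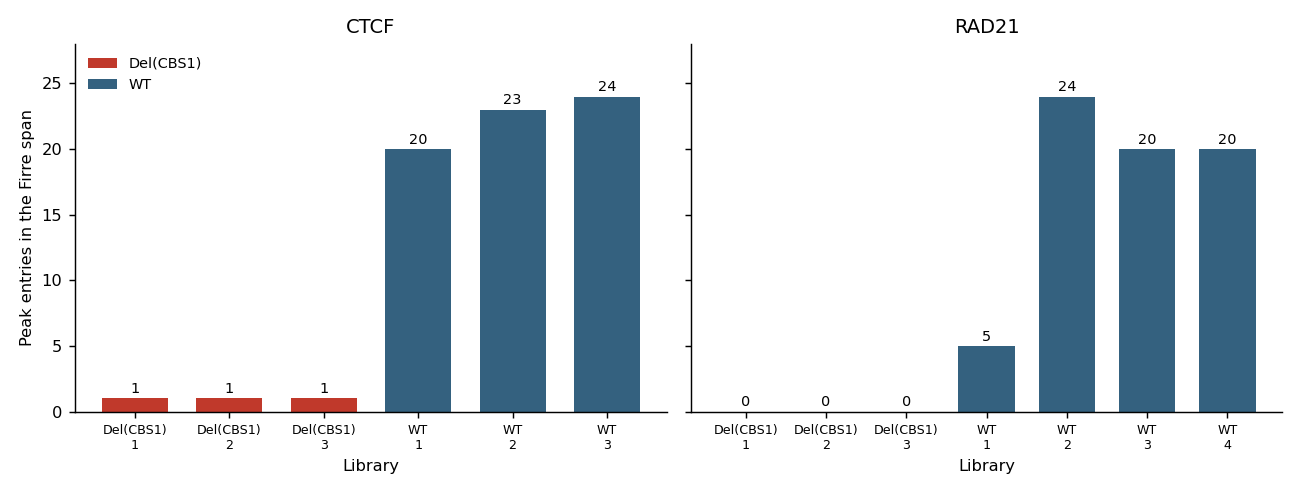
Peak entries within the span of the X-linked gene Firre (y axis, count) in each Del(CBS1) and WT library (x axis), for CTCF and RAD21; each bar is 1 library. Del(CBS1) libraries had at most 1 entry and WT libraries at least 5.

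The first comparison asked whether the targeted site was lost. The labels give no coordinates, so the 5 mutated sites were placed at HoxD peaks by their loss in the 8 CTCF libraries of the other 5 alleles, without the Del(CBS1) libraries. CBS1 fell at 74715933, within the spans of Hoxd3 and of its antisense gene Hoxd3os1, and this placement was unique among 95040, with 5 site and library pairs off pattern against 7 for the next. No CTCF peak covered CBS1 in 3 of 3 Del(CBS1) libraries, whereas in WT the covering peaks had fold enrichments of 18.4, 12.5 and 14.2. No RAD21 peak covered it in 3 of 3 Del(CBS1) libraries, whereas in WT the folds were 15.2, 13.7, 11.8 and 17.8. Fold enrichment is the authors' ratio of the summit to the local background of the same library. Fisher's exact test (2-sided) of detection gave p = 0.1 for CTCF and p = 0.0286 for RAD21, the smallest values that 3 against 3 and 3 against 4 libraries allow. Adjusted over 18 HoxD sites these exact p-values were 0.9 and 0.515, and WT detection is fixed by the choice of sites. Without any 1 of the 7 RAD21 libraries the exact p was 0.0667 or 0.1, again the smallest possible. By the same definition of loss, 2.95% of all CTCF sites and 0.389% of all RAD21 sites were lost.

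CTCF was still called beside CBS1. Each Del(CBS1) CTCF library had a smaller peak beside the site, starting 74, 97 and 94 bp telomeric of the CBS1 summit. Its summits lay 424, 213 and 268 bp from CBS1, at folds of 7.37, 4.47 and 5.24. In WT the single peak of each library covered both places, with its summit -8, 39 and 0 bp from CBS1. Whether the smaller peak was already present in WT cannot be told from these lists. The smaller peaks of Del(CBS1) ranked at percentiles 43.8, 29.5 and 43.5 of their own lists, against 96.6, 90.7 and 91.5 for the WT peaks. All 3 smaller peaks covered the match in the Hoxd3os1 promoter stretch. RAD21 had no peak within 1000 bp of CBS1 in any of the 3 Del(CBS1) libraries, so here CTCF was detected and RAD21 was not. CTCF without RAD21 was common: in WT, 41.2% of all CTCF sites had within 150 bp a RAD21 site found in every WT library. The peaks of single WT RAD21 libraries reached more, 44.7 to 62.9% of CTCF sites.

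The libraries of the other alleles repeat the CTCF peak beside CBS1 outside the comparison, and the absence of RAD21 in part of them. All 7 CTCF libraries of other alleles with CBS1 mutated had a peak there, with summits 240 to 340 bp from CBS1 and folds of 2.84 to 7.58. RAD21 had a peak within 1000 bp in 3 of 8 such libraries, at folds of 2.49 to 3.21. In 2 of the 7 CTCF libraries this peak reached over the CBS1 summit. When a peak base anywhere within 250 bp was enough for detection, the smaller peak made CBS1 detected in all 3 Del(CBS1) CTCF libraries (exact p = 1.0). RAD21 remained undetected in Del(CBS1) by that rule. Among 1405 lost CTCF sites, 82 (5.84%) kept a peak within 250 bp in all 3 Del(CBS1) libraries.

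**Figure D2:**
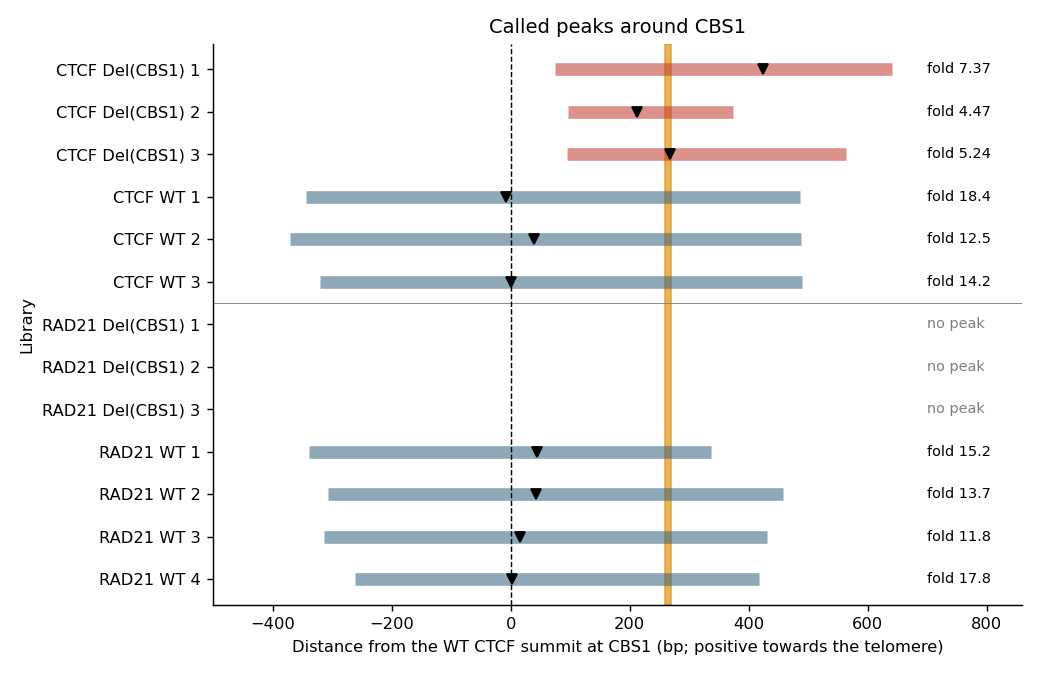
Peaks called around CBS1 in each library (rows; bars run from peak start to peak end, triangles are summits, numbers are folds), against distance in bp from the WT CTCF summit (x axis); the vertical band is the match in the Hoxd3os1 promoter stretch, 259 to 270 bp away. Del(CBS1) CTCF peaks start 74 to 97 bp from CBS1, and Del(CBS1) RAD21 has none.

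CBS1 was the strongest site lost for either antibody. Its mean WT fold was 15.0 for CTCF and 14.6 for RAD21, rank 1 among 1405 and among 78 lost sites. Lost sites had a median WT fold of 4.24 for both antibodies, against 8.4 and 7.89 over all CTCF and RAD21 sites found in every WT library. The lowest WT -log10 q at CBS1 was 104 for CTCF and 80.0 for RAD21, while the next highest among lost sites were 27.5 and 12.5. Of the 5626 CTCF sites with a lowest WT -log10 q at least as high as that of CBS1, CBS1 was the 1 that was lost.

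**Figure D3:**
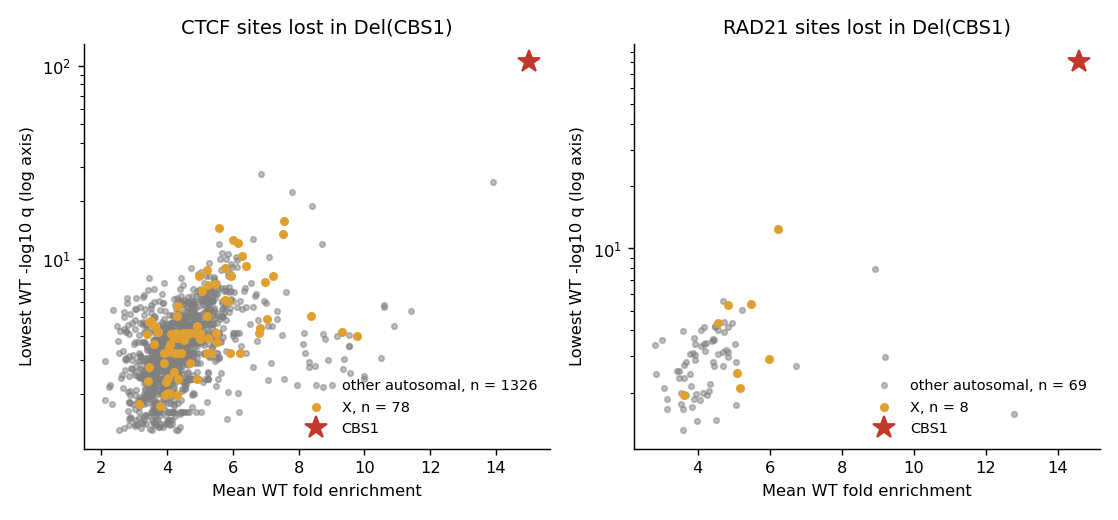
Sites with a peak in every WT library and in no Del(CBS1) library, by mean WT fold (x axis) and lowest WT -log10 q (y axis, log scale); each point is 1 site. CBS1 stands apart at fold 15.0 and -log10 q 104 for CTCF, and at 14.6 and 80.0 for RAD21.

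The second comparison asked whether the HoxD sites that remained intact took more or less of each protein. Because each list was called alone, folds were turned into percentiles over the 33658 CTCF or 15643 RAD21 sites found in every library of the comparison, with 0 for no peak. The window (74632989 to 74785142) held 12 CTCF and 6 RAD21 sites. None of the 18, CBS1 included, passed the exact permutation test after adjustment. None could pass, because the smallest possible unadjusted p was 0.1 for CTCF and 0.0571 for RAD21. The test therefore cannot decide whether an intact site changed. RAD21 was higher in mean at the 4 intact sites found in all libraries, by 2.88 points at the site beside Hoxd13. By limma change, 49.5% of all RAD21 sites were higher. At the intact site 74663707, found in 2 of 3 Del(CBS1) libraries, RAD21 was lower in mean (4.19 against 11.3 in WT). CTCF was lower at CBS2, CBS3 and CBS5. Group ranges overlapped at all but 1 of these RAD21 and CTCF sites. Ranked by -log10 p, CTCF at CBS2 was 0.256 points higher and RAD21 beside Hoxd13 differed by -0.106. Over all sites, every Del(CBS1) percentile lay above every WT percentile at 2.73% of RAD21 and 4.9% of CTCF sites, and below at 2.86% and 4.58%.

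CBS4, in the promoter stretch of Hoxd10, a posterior Hox gene, was that exception. RAD21 stood there at percentiles 92.8, 73.6 and 76.2 in Del(CBS1), against 23.4, 62.6, 46.1 and 63.8 in WT. Every Del(CBS1) library lay above every WT library. The means were 80.9 ± 10.4 in Del(CBS1) and 49.0 ± 18.9 in WT (SD, n = 3 and 4). The exact 2-sided permutation p was 0.0571, the smallest that 3 against 4 allows, and 0.45 adjusted over 18 sites. In limma the change was 0.97 ± 0.31 (SE) normal-score units, with an adjusted p of 0.991. The difference of 31.9 percentile points was 11.8 with both replicate 1 libraries left out, and the 2 groups did not overlap then either. CTCF at CBS4 was weak in both groups, at 8.24 ± 4.99 in Del(CBS1) and 8.26 ± 8.89 in WT (SD, n = 3 each). In the 5 RAD21 libraries of other alleles with CBS4 intact, ranked over the sites each had, Del(CBS1-2) had percentiles of 77.1 and 89.4 there, Del(CBS1-3) had 92.5 and 90.4, and Del(CBS2), which keeps CBS1, had 85.1. All 5 lay above the highest WT value for RAD21. The CTCF libraries of these alleles, ranked likewise, were also higher at CBS4. Del(CBS1-2) stood at percentile 21.4, Del(CBS1-3) at 56.6 and 32.3, and Del(CBS2) at 24.0. Each of these exceeded the highest WT value for CTCF, 18.1, whereas the Del(CBS1) values of 11.8, 2.54 and 10.3 did not. The higher values in other alleles were therefore not particular to RAD21.

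CBS2 is the next site centromeric of CBS1, 595 bp from Gm38462. Its RAD21 percentiles were 91.1, 65.2 and 75.8 in Del(CBS1), against 69.6, 52.3, 71.0 and 48.1 in WT. The groups overlapped, and the difference of 17.1 had an exact permutation p of 0.171 (adjusted 0.514). It was 8.48 without Del(CBS1) replicate 1 and 23.1 without Del(CBS1) replicate 2, the lowest and highest with 1 library left out. CTCF at CBS2 ran the other way in its mean, at 87.6, 61.9 and 77.0 in Del(CBS1), against 96.7, 93.7 and 58.3 in WT. That difference of -7.38 had an exact permutation p of 0.6, and it ranged between -19.6 without WT replicate 3 and -0.45 without Del(CBS1) replicate 2.

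CBS5, in the spans of Hoxd11 and Hoxd10, had CTCF percentiles of 75.9, 24.1 and 29.5 in Del(CBS1), against 59.2, 59.1 and 61.5 in WT. The Del(CBS1) libraries lay on both sides of a narrow WT range. CBS3, in the Hoxd10 span, had 31.6, 7.31 and 9.91 in Del(CBS1), against 31.2, 34.2 and 25.3 in WT. Del(CBS1) replicate 1 lay within the WT range at CBS3 and above it at CBS5, and replicates 2 and 3, with the shorter lists, lay below it at both sites. The adjusted permutation p-values were 0.72 at CBS5 and 0.675 at CBS3. The CTCF differences of -16.8 points at CBS5 and -14.0 at CBS3 were -33.4 and -21.6 with both replicate 1 libraries left out. The groups, then of 2 libraries each, did not overlap at either site. RAD21 had no peak over CBS3 in any of the 3 Del(CBS1) or 4 WT libraries. At CBS5 it had 1 in 1 of 3 Del(CBS1) libraries (fold 4.34) and in 2 of 4 WT libraries (folds 2.41 and 4.25).

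Centromeric of the mutated sites, the cluster meets its flank beside Hoxd13, the most posterior Hoxd gene. The site 1493 bp from Hoxd13 (74673096) was strong in both groups, with CTCF at 84.0 ± 11.3 in Del(CBS1) and 83.4 ± 12.3 in WT (SD, n = 3 each). RAD21 there was at 78.5 ± 8.17 in Del(CBS1) (n = 3) and at 75.6 ± 23.2 in WT (SD, n = 4), where WT replicate 4 was low at 41.0. In the span of Gm31790, CTCF at 74663755 was at 36.0 ± 9.56 in Del(CBS1) and 30.7 ± 6.13 in WT. The pair at 74661718 and 74661969 lay under 1 peak in each Del(CBS1) library, at 12.6 ± 9.48 for both, against 5.55 ± 2.05 and 7.51 ± 2.37 in WT. RAD21 at 74661981 was at 56.0 ± 26.5 in Del(CBS1) and 43.2 ± 19.3 in WT. At 74663707 RAD21 was found in 2 of 3 Del(CBS1) and 4 of 4 WT libraries, at 4.19 ± 3.67 and 11.3 ± 12.0. None of these passed, with adjusted permutation p-values of 0.514 to 1.0.

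Evx2, a homeobox gene next to Hoxd13, held a pair of weak CTCF sites without RAD21 sites. At 74655517 the percentiles were 7.58, 7.82 and 14.4 in Del(CBS1), against 19.9, 19.8 and 17.2 in WT, and the groups did not overlap. The exact permutation p was 0.1, the smallest that 3 against 3 allows, and 0.45 adjusted. The groups overlapped at 74655517 with a summit required within 100 bp and with ranks of -log10 p. They stayed apart in the other settings of this test. The neighbouring site at 74655823 was at 10.1 ± 3.77 in Del(CBS1) and 15.7 ± 4.73 in WT, which overlapped. Del(CBS1) replicates 2 and 3 and WT replicate 2 had the same percentile at both sites, so the pair is not independent. Farthest out, the site at 74635596, 10848 bp from Gm22975, was found in 1 of 3 Del(CBS1) and 3 of 3 WT libraries. Neither antibody gained a site in the window.

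**Figure D4:**
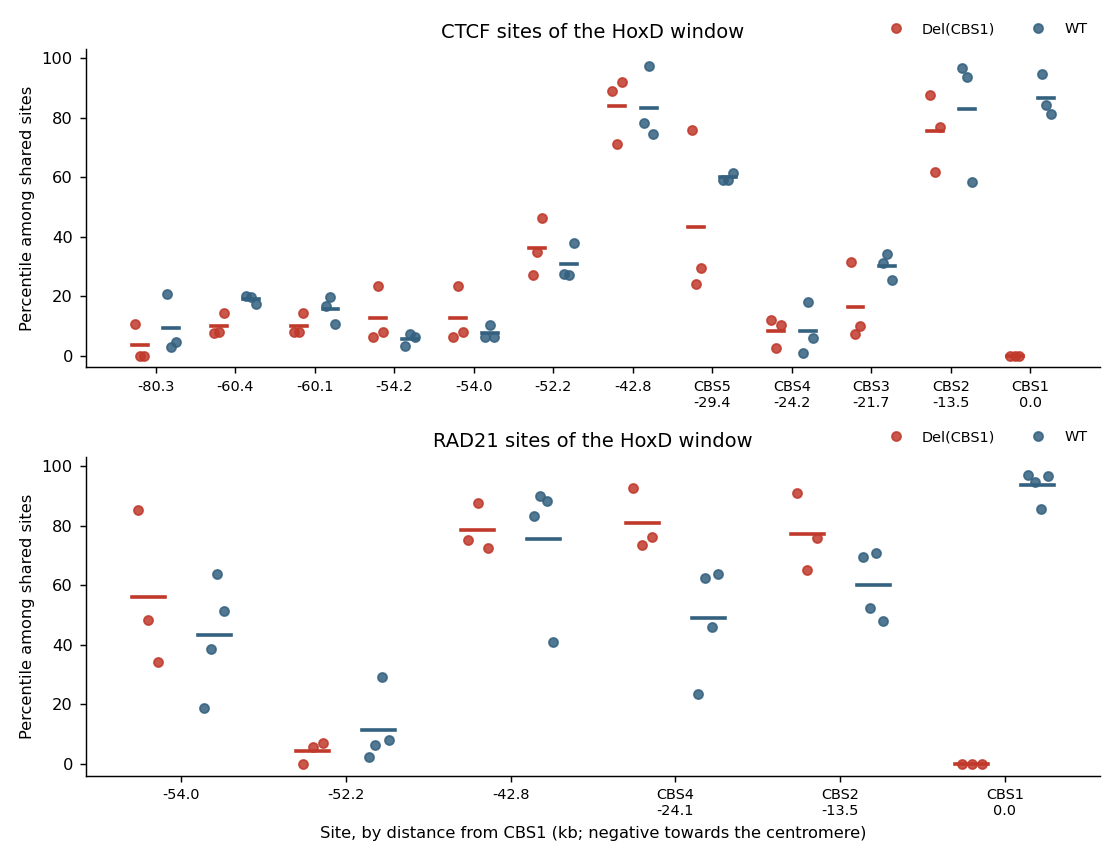
Percentile of each HoxD site (y axis) in each Del(CBS1) and WT library, by distance from CBS1 in kb (x axis); points are libraries, lines are group means, and 0 stands for no peak. At CBS4 the RAD21 percentiles were 73.6 to 92.8 in Del(CBS1) and 23.4 to 63.8 in WT, and at CBS1 all Del(CBS1) values were 0.

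The third comparison covered the flanking landscapes. The centromeric side ran from Atp5g3 (73912465 to 74632988), past Lnpk, and the telomeric side to Hnrnpa3 (74785143 to 75659104). No site of either landscape passed limma for either antibody, with smallest adjusted p-values of 0.96 for CTCF and 0.991 for RAD21. Over all sites limma called 0.00297% of CTCF and 0.0% of RAD21 sites. On the centromeric side CTCF was lower at 7 of 8 sites found in every library, with a median change of -0.3 normal-score units (range -0.72 to 0.23). On the telomeric side it was higher at 10 of 14, with a median of 0.11 (range -0.78 to 0.74). Over all sites 51.4% were higher, with a median of 0.01. With 1 Mb to each side, 27.3% of 11 centromeric sites and 68.8% of 16 telomeric sites were higher.

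None of the named centromeric CTCF sites found in every library passed limma's test. At 74300441, in 4930441J16Rik and 415 kb from CBS1, the percentiles were 70.5, 66.9 and 68.8 in Del(CBS1), against 84.1, 92.5 and 88.1 in WT (change -0.72 ± 0.26 SE, limma adjusted p = 0.96). The groups did not overlap there, nor at 73925246, 12782 bp from Atp5g3, which averaged 44.7 in Del(CBS1) and 67.2 in WT. At 74247691 the means were 10.7 in Del(CBS1) and 27.2 in WT, with overlap. In the other direction, 73998720 had the 1 positive change, 0.23 ± 0.28, and 74042644 and 74066837 had changes of -0.05 and -0.07. The strong site at 74066837 stood at 95.1 in Del(CBS1) and 97.5 in WT. The 2 lost centromeric sites were weak: 74042271 had a mean percentile of 11.1 and 74571566, in Lnpk, 2.96 in WT. In WT replicates 1 and 2, 74042271 had the same percentiles, 12.0 and 20.1, as its neighbour 74042644. That neighbour was found in all 3 Del(CBS1) libraries, so the loss at 74042271 depends on how peaks were split.

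On the telomeric side the nearest shared CTCF site to CBS1, 74964574 at 249 kb, had the largest decrease. Its percentiles were 93.2, 90.2 and 90.1 in Del(CBS1), against 99.0, 98.9 and 96.3 in WT, without overlap (change -0.78 ± 0.29 SE, limma adjusted p = 0.96). Sites in Gm50595, 800 and 848 kb away, differed in the opposite direction without overlap. At 75515435 the mean was 32.2 in Del(CBS1) and 12.6 in WT, and at 75563821 it was 17.8 in Del(CBS1) and 7.46 in WT. The third increase, at 75138103 in 2600014E21Rik, was 0.45 ± 0.29, and the next largest decreases, at 75151131 and 75636769, were -0.4 and -0.21. The 2 lost telomeric sites, 75530986 and 75556840 in Gm50595, had mean WT percentiles of 2.67 and 3.79.

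RAD21 lost no site in the landscapes. It was higher at 2 of 4 centromeric sites (median change 0.2) and at 4 of 7 telomeric sites (median 0.0), against 49.5% of all RAD21 sites. At 74027980, 49553 bp from Gm31472, RAD21 was at 28.1, 45.9 and 43.7 in Del(CBS1), against 5.84, 23.1, 23.2 and 26.8 in WT. The groups did not overlap there, and the change was 0.63 ± 0.33 SE (limma adjusted p = 0.991). The other centromeric changes were 0.42 at 74066852, -0.03 at 73925287 and -0.34 at 74300462. The telomeric extremes were 0.55 at 75312415, 0.34 at 75605878 and 0.01 at 75588756, and -0.33 at 74964550, -0.18 at 75590372 and -0.16 at 75055376.

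**Figure D5:**
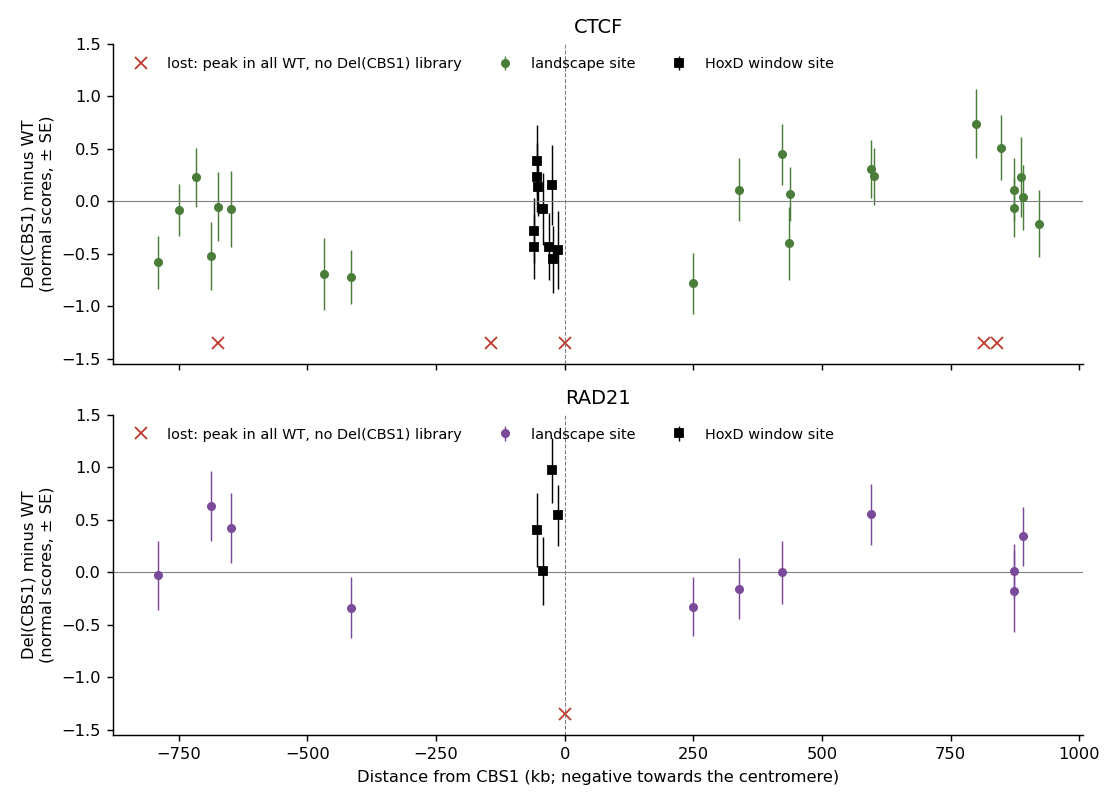
Change of each site found in every library (y axis, Del(CBS1) minus WT in normal scores, bars are SE) by distance from CBS1 in kb (x axis); crosses mark lost sites. CTCF changes ran from -0.72 to 0.23 on the centromeric and from -0.78 to 0.74 on the telomeric side.

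Set by distance from CBS1, and leaving out CBS1 itself, the share of lost CTCF sites was highest between 100 kb and 1 Mb. That share rests on 6 sites, and site strength was not compared between distances. Within 100 kb of CBS1, leaving out the site itself, 0 of 11 CTCF and 0 of 5 RAD21 sites were lost. From 100 kb to 1 Mb, 6 of 42 CTCF sites (14.3%) and 0 of 14 RAD21 sites were lost, and from 1 to 10 Mb 12 of 329 (3.65%) and 2 of 151 (1.32%). Over 10 Mb away on chromosome 2 the shares were 3.2% and 0.287%, and on other chromosomes 2.91% and 0.384%. The 4 lost CTCF sites of the landscapes had mean WT percentiles of 2.67 to 11.1. They include 74042271, whose neighbour 74042644 was found in every library.

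Across the genome 1405 of 47647 CTCF sites (2.95%) and 78 of 20061 RAD21 sites (0.389%) were lost, and 14 of 36177 CTCF sites (0.0387%) and 4 of 16994 RAD21 sites (0.0235%) were gained. These counts have no test and moved with the libraries used. Lost CTCF sites numbered 7212 without Del(CBS1) replicate 1, 5066 without WT replicate 1 and 2926 without WT replicate 2. Lost RAD21 sites numbered 344 and 172 without Del(CBS1) replicates 2 and 3, and 568, 127 and 168 without WT replicates 1, 3 and 4. Gained sites numbered 33 to 91 for CTCF and 4 to 1096 for RAD21 when each library was left out, with 1096 without Del(CBS1) replicate 1. CBS1 was lost in every one of these counts. The 4 strongest lost CTCF sites after CBS1, with a lowest WT -log10 q of 4.48 to 24.9, lay 231 bp from Olfr1069-ps1 (fold 13.9), in Lrriq1 (11.4), 24235 bp from Gm40665 (10.9) and in Rest (10.6), which encodes a repressor of neuronal genes. At 3 of these, all but the one beside Olfr1069-ps1, all 3 Del(CBS1) libraries had a peak base within 250 bp. The strongest lost RAD21 sites after CBS1 lay 165 bp from n-TSgct7 (fold 12.8), in Elf1 (9.2), in Skint11 (8.93) and in Sytl3 (6.73).

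Gained sites were few. The 5 strongest CTCF gains lay near Mbl2 (mean Del(CBS1) fold 9.78) and Pou1f1 (9.3), in C1s1 (8.58) and Vstm2b (8.05) and near Gm39404 (7.85). All 5 had a peak base within 250 bp in 2 or 3 of the 3 WT libraries. The RAD21 gains lay near Gm23175 (8.31), in Tekt4 (7.06), near the globin gene Hbq1a (5.07) and near Gm4936 (4.05). The first 2 of these had a peak base within 250 bp in 4 of 4 WT libraries, and the other 2 in 0 of 4.

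Loss was more frequent on X than on autosomes for both antibodies. CTCF lost 78 of 1365 sites on X (5.71%) and 1327 of 46282 on autosomes (2.87%), and RAD21 8 of 534 (1.5%) and 70 of 19527 (0.358%). All 19 CTCF and all 5 RAD21 sites in the Firre span were lost. Outside it, 4.38% of CTCF and 0.567% of RAD21 sites on X were lost.

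The single limma call of 33658 CTCF sites was at 66997492 of chromosome 5, in Limch1, with a change of 4.02 ± 0.34 SE (adjusted p = 5.05e-06). Its percentiles were 89.3, 92.4 and 75.0 in Del(CBS1), against 0.0683, 0.0683 and 1.05 in WT. In each Del(CBS1) library 1 peak entry covered the site, with its summit 441 to 488 bp away and folds of 17.0, 10.6 and 9.2. In each WT library 2 entries covered it, a weak one at or within 66 bp of the site (folds 2.34, 2.21 and 3.59) and a strong one 456 to 478 bp away (17.5, 13.3 and 13.9). The strong summit was thus present in all 6 libraries, and with a summit required within 100 bp the count of calls was 0. RAD21 had 0 calls of 15643, with 712 sites at an unadjusted p under 0.05 against 782 by chance, and CTCF had 1600 against 1683.

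The last comparison set the 2 proteins side by side. In WT, 41.2% of 47647 CTCF sites had a RAD21 site within 150 bp, and 97.9% of 20061 RAD21 sites had a CTCF site. Of the 1405 lost CTCF sites, 20 (1.42%) had a RAD21 site within 150 bp. Of the lost sites, 8 were shared, 0.569% of the lost CTCF and 10.3% of the lost RAD21 sites. They were CBS1, 5 sites in Firre, and 1 site each 24165 bp from Wdr7 and 8721 bp from Gm8986 on chromosome 18. CBS1 had mean WT folds of 15.0 and 14.6 for CTCF and RAD21, and the other 7 had at most 8.7 for CTCF and 6.23 for RAD21. CBS1 was also the 1 of the 8 with a CTCF peak within 250 bp in all 3 Del(CBS1) libraries.

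Where both proteins were found in every library, their changes were weakly related. Over 15357 site pairs, which come from the same libraries and are not replicates, Pearson's r of the changes was 0.13 and Spearman's rho 0.12. For the WT levels these were 0.53 and 0.54. Of the pairs, 53.6% changed in the same direction. In the HoxD window 2 of 4 pairs were higher for both and 2, at CBS2 and beside Hoxd13, were higher for RAD21 and lower for CTCF. At CBS2 the changes were 0.54 for RAD21 and -0.46 for CTCF. Beside Hoxd13 they were 0.01 ± 0.32 for RAD21 and -0.07 ± 0.34 for CTCF (SE), too small to give that pair a direction. The mean CTCF percentile beside Hoxd13 was slightly higher in Del(CBS1), at 84.0 against 83.4 in WT. On the centromeric side 2 of 4 pairs were lower for both, and on the telomeric side 3 of 7 were higher and 2 lower for both.

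The genome-wide overlap of the proteins did not differ beyond its spread. RAD21 peaks reached 36.4, 61.2 and 57.9% of CTCF sites in Del(CBS1), against 44.7, 62.9, 56.8 and 58.5% in WT. The means were 51.8 ± 13.5% in Del(CBS1) and 55.7 ± 7.79% in WT (SD, n = 3 and 4; exact permutation p = 0.571). The 2 low values belong to the replicate 1 libraries with short RAD21 lists. With the same number of top RAD21 peaks the means were 37.3% in Del(CBS1) and 37.5% in WT. The share of RAD21 peaks at CTCF sites was 86.1 ± 9.77% in Del(CBS1) and 84.6 ± 7.75% in WT (exact permutation p = 0.857).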

How the data were processed

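CTCF and RAD21 peaks of E10.5 trunks were analysed from 1 deposited narrowPeak list per library (mm10). The submitters' processing notes name bedtools 2.27.1, Bowtie2 2.3.5, cutadapt 1.16, MACS2 2.1.1.20160309, Picard 2.19.0 and SAMtools 1.9; options are not given in the sources used here. The authors deposited for each peak a fold enrichment (a ratio within the library), a -log10 p, a -log10 q, a summit offset and a score, which was not used.

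Only entries on autosomes and X entered the comparisons. Linked WT summits (150 bp or less apart) formed a site, kept where every WT library had a peak over the median summit. A site took the fold of the covering entry with the nearest summit. Lost sites had a peak in every WT and no Del(CBS1) library, and gained sites the reverse. Ranks of folds over sites found in every library were turned into normal scores and compared by limma 3.58.1 (R 4.3.3; robust, with trend; Benjamini-Hochberg threshold 0.05) on Del(CBS1) and WT alone. Tests of single sites were exact 2-sided permutation and Fisher tests, adjusted over the 18 HoxD sites. Windows reached 20 kb beyond Evx2 and Hoxd1. Genes came from RefSeq spans (GRCm38.p6), so exons and introns were not told apart. RAD21 intervals were counted at CTCF sites within 150 bp to each side.

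Sites named were every HoxD site, the lost, gained or called sites and the 3 largest changes each way of each landscape, and genome-wide the calls and the 5 strongest lost and gained sites. The comparison, the sites and these rules were chosen with earlier results of these data known. Other settings tried were detection by a summit at most 100 bp away or by any base within 250 bp, -log10 q of at least 10, equal numbers of top peaks, ranks of -log10 p, centred log2 folds, limma without trend, all genotypes in the fit, the weakest 25% of sites left out, the replicate number as a block, and each library left out. Autosomes only, and both replicate 1 libraries left out, were added after seeing the data. The script was tested on simulated data. Other steps used scipy 1.17.1, pandas 2.3.3, numpy 2.4.6 and matplotlib 3.10.9 in Python 3.11.15.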

Additional observations from a re-analysis of the deposited data

Results flagged for a closer look

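In WT RAD21 libraries, 1 sample lay far from the other 3 at 3 sites of 21 groups of 4 values examined; chance flags about 1 in 20 such groups. At 74673086, beside Hoxd13, WT replicate 4 stood at percentile 41.0, with a gap of 0.861 of the range. WT replicate 1 stood at 36.9 at 75055376 (gap 0.842 of the range) and at 62.0 at 75590372 (0.837).

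Chromosome Y, which no comparison used, held in its first 3.5 Mb 7 CTCF peak entries over the 3 Del(CBS1) libraries, against 2 over the 3 WT libraries. RAD21 had 5 entries over the 3 Del(CBS1) libraries, against 1 over the 4 WT libraries. The part of these entries in the results was not tested.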

How the results depend on the processing

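Read depth was unknown. The 18 HoxD sites gave 0 calls by permutation under every alternative run, with smallest adjusted p-values of 0.36 to 0.72. That outcome was fixed in advance and says nothing about stability. With all libraries the smallest possible unadjusted permutation p was 0.1 for CTCF and 0.0571 for RAD21, and fewer libraries allow no smaller value. For limma, CTCF calls numbered 1; they were 0 with all genotypes in the fit, with a summit within 100 bp and with equal numbers of top peaks, 9 with any base within 250 bp and 23 with both replicate 1 libraries left out. Leaving out each library gave 1 to 11 CTCF calls (11 without Del(CBS1) replicate 1 or WT replicate 1, 4 without WT replicate 2, 3 without Del(CBS1) replicate 2 and 2 without WT replicate 3). RAD21 calls were 0 in all of these except 2 with both replicate 1 libraries left out.

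Lost CTCF sites numbered 634 at a -log10 q of at least 10, 224 with equal numbers of top peaks, 12783 with both replicate 1 libraries left out and 1544 to 7212 with each library left out. Lost RAD21 sites numbered 129 with a summit within 100 bp, 26 at the -log10 q limit, 606 without both replicate 1 libraries and 99 to 568 with each library left out. Gained CTCF sites numbered 79 with a summit within 100 bp, 3 with any base within 250 bp, 0 at the -log10 q limit, 43 with equal numbers, 123 without both replicate 1 libraries and 33 to 91 with each library left out. Gained RAD21 sites numbered 24, 8, 0, 32 and 1131 in the same order, and 4 to 1096 with each library left out. The cause was not tested.

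Detection at CBS1 changed in exact p to 1.0 for CTCF with any base within 250 bp, to 0.1 for RAD21 without both replicate 1 libraries, and to 0.0667 to 0.1 for RAD21 with each library left out, where fewer libraries allow no smaller value. The RAD21 share of CTCF sites (-3.89 points) was 0.15 without both replicate 1 libraries and -8.57 to 3.83 with each left out. The CTCF share of RAD21 peaks (1.47 points) was -0.275 with equal numbers, -0.2 without both replicate 1 libraries and -3.8 to 5.85 with each left out.

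Some differences that did not pass changed direction. With ranks of -log10 p, CTCF at CBS4 and CBS2 differed by 6.74 and 0.256 points, RAD21 at 74673086 by -0.106, and the changes at CTCF 74042644, CTCF 74066837 and RAD21 73925287 were 0.07, 0.06 and 0.1. At the -log10 q limit CTCF at 74661969 and RAD21 at 74673086 differed by -0.154 and -0.31. Without both replicate 1 libraries CTCF at 74673096 and RAD21 at 74661981 differed by -4.4 and -7.84. RAD21 at 73925287 was 0.02 with centred log2 folds and 0.01 without the weakest sites. With each library left out the ranges were -0.821 to 8.19 points for CTCF at 74661969, -3.87 to 7.53 at 74673096 and -3.89 to 4.88 at CBS4, and -1.3 to 23.5 and -8.63 to 7.65 for RAD21 at 74661981 and 74673086. The ranges of changes were -0.32 to 0.1 and -0.46 to 0.31 for CTCF at 74042644 and 74066837, and -0.26 to 0.27, -0.06 to 0.07 and -0.4 to 0.16 for RAD21 at 73925287, 75588756 and 75590372.

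The labels pair replicates by number only. The deviations of same-numbered Del(CBS1) and WT libraries correlated at 0.26, 0.12 and 0.03 for CTCF and at 0.26, 0.09 and 0.06 for RAD21. Replicate 1 thus had the highest value for both antibodies. Whole CTCF libraries correlated at 0.8 to 0.9, and both replicate 1 libraries reached 0.9. Median CTCF folds were 8.31 and 8.62 in Del(CBS1) and WT replicate 1, against 5.73 to 5.94 in the others. A shared origin of the replicate 1 libraries was not tested. With the replicate block limma called 5 CTCF and 2 RAD21 sites, and the shares differed by -2.97 and 0.2 points.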
